A study of Bos taurus with 6 samples.

Results

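The autosomal windows with the most signal in these libraries were the 1245 windows of 3 kb on chromosomes 1 to 29 with a CPM of 50 or more in every one of the 6 libraries, out of 837275 autosomal windows (0.149%) and 902984 windows in the files. CPM, the usual counts per M reads, was taken over the read counts of all windows of a library. The libraries were MIRA-Seq libraries of dermal fibroblast cultures of Holstein heifers. Animals 1, 2 and 3 each gave 1 culture when 5 months old and 1 when 16 months old, which made 3 libraries per age and 2 per animal. All were passage 5 cultures with no treatment and no LPS exposure. The cultures were chosen by the authors from a larger collection as those of animals with a middle response to LPS, and a single culture stands for each animal and age.

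MIRA is a pulldown of sheared DNA with proteins that recognise methylated CpG, followed here by sequencing. A stretch of DNA collects many reads when it holds many methylated CpG sites, and also when the genome carries more copies of it than the reference assembly. In mammals most CpG sites outside gene starts are methylated, and tandem repeats, among them the satellite DNA around the centromeres of cattle chromosomes, are large and often CpG-rich stretches of methylated DNA that assemblies hold incompletely. No library without pulldown was analysed here, so methylation, CpG density and copy number cannot be told apart in the counts. No genome of the build of the files was used, and the repeat content of the windows was not examined.

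The selection used the read counts of all 6 libraries, and the levels below are therefore a description with no test. Counted reads ranged from 19.9 to 43.6 M per library. Each of the 1245 windows had at least 1056 reads in every library, where the median autosomal window had between 1 and 7 reads. The mean CPM over the 6 libraries had a median of 128 over the selected windows, with quartiles of 91.9 and 213 and a highest value of 5132. Of the windows, 384 had a mean CPM under 100 and 30 had 1000 or more.

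The selected windows held 27.2% ± 4.03 of the counted reads (SD, n = 6 libraries). The share was 33.9% and 29.9% in the 5- and 16-month libraries of animal 3, and from 23.9% to 27.0% in the libraries of animals 1 and 2. Both libraries of animal 3 were above the other 4. The 10 windows with the highest mean CPM held 13.2% of the reads of the selected windows and the top 100 held 37.8%. The signal was thus spread over many windows.

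At the threshold itself, the windows just inside and just outside had close values. The 3 windows just inside had a lowest CPM of 50.0004, 50.0004 and 50.0077, on chromosomes 26, 8 and 8. The 3 just outside had a lowest CPM of 49.947, 49.870 and 49.801, on chromosomes 19, 6 and 2. Their mean CPM ranged from 60.1 to 71.5 inside and from 56.4 to 69.6 outside. A total of 2039 autosomal windows reached 50 CPM in at least 1 library, and 1746 did so by their mean.

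The selected windows lay in runs. With no other window between them they formed 550 runs, of which 322 were single windows, 107 had 2 windows, 82 had 3 to 5 and 39 had 6 or more. In runs of at least 2 windows stood 923 windows, or 74.1%, and 20 runs of at least 10 windows held 272. Runs also lay near each other. When windows up to 100 kb apart were joined, the 550 runs formed 288 loci, of which 162 held 1 window and 35 held 10 or more. These 35 loci held 755 windows, or 60.6%, and 59.9% of the CPM of the selected windows.

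The longest run had 21 windows, on chromosome 1 from 145290901 to 145353900, with no gene label. Its windows averaged 581, 693 and 1770 CPM at 5 months in animals 1, 2 and 3 and 870, 631 and 1521 CPM at 16 months. Both libraries of animal 3 were highest. The next run, of 20 windows on chromosome 1 from 144072701 to 144132900, stood about 1 Mb away and had a different pattern, with 186, 174 and 162 CPM in the 5-month cultures and 154, 188 and 175 CPM at 16 months. Here the libraries overlapped between animals.

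A run of 18 windows on chromosome 1 from 145398901 to 145452900 belonged to the same locus as the longest run, and averaged 174, 202 and 533 CPM in the 5-month cultures and 262, 192 and 444 CPM at 16 months. The run of 16 windows on chromosome 29 from 30223419 to 30271418 averaged 176, 200 and 538 CPM at 5 months and 263, 183 and 457 CPM at 16 months. These chromosome 29 values followed those of the chromosome 1 run in every library. The other run of 16 windows, on chromosome 1 from 57439901 to 57487900, carried the label SLC9A10, a sodium/proton exchanger of sperm, and averaged 183, 178 and 157 CPM at 5 months and 148, 187 and 165 CPM at 16 months.

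The signal fell off faster beside single windows than beside long runs. The outermost window of a single-window run had a median mean CPM of 113, the next window 21.8, and the window 5 steps away 0.429. In runs of 6 or more windows the median fell from 137 at the edge to 43.9 in the next window and was 42.4 at 5 steps, where 35 of the 78 windows were selected themselves. Of all 1094 windows next to a run, 374 had a mean CPM under 10 and 290 had one under 1.

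**Figure D1:**
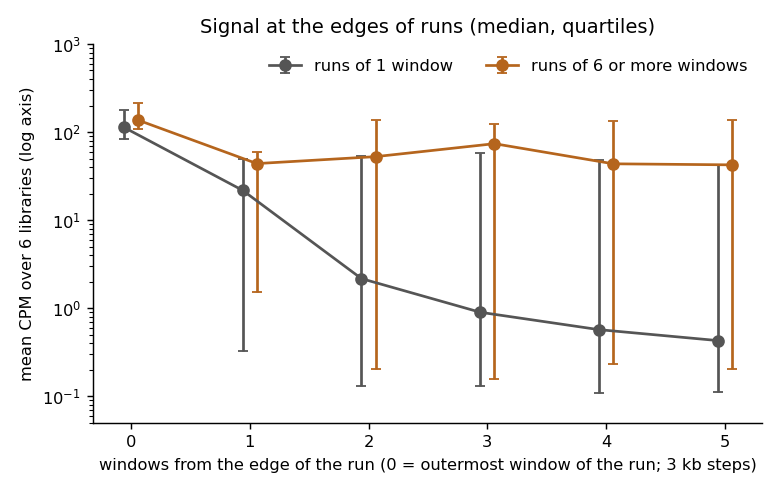
Mean CPM over the 6 libraries (log axis) of the outermost window of each run (position 0) and of the 5 windows beyond it in steps of 3 kb, as medians with quartiles, for runs of 1 window and of 6 or more windows. The median of single-window runs falls from 113 to 0.429 CPM, while beside the long runs it stays above 40 CPM.

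The reads of a selected window stood on a small part of it. The files give the highest and the mean depth of coverage of each window, which the selection did not use. The width that the reads would cover at the highest depth, taken as mean depth times window length over highest depth, had a median of 305 bp in the selected windows, with quartiles of 230.0 and 387 bp. It was 943 bp in the 6713 autosomal windows that had a mean CPM of 10 or more, passed the filter of the tests and were not selected. In each library the median of the selected windows was between 261 and 317 bp and that of the other windows between 798 and 1015 bp, so the libraries did not overlap. In 1239 of the 1245 windows each of the 6 libraries left at least 1 base without a read, not always the same base. This count has no share of other windows beside it, and nothing is read from it about the selected windows.

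The highest depth per read count, a measure of stacking at 1 place, had a median of 0.332 in the selected windows and 0.107 in the other windows. In 197 selected windows it was 0.5 or more. It was highest on chromosome 6 from 56201682 to 56204781, where it reached 1.00 and the width was 98.8 bp, about the length of 1 read, since the mean depth of the selected windows corresponded to 98.3 to 98.7 bases per read. The next highest were on chromosome 3 from 75990710 to 75993709, with a width of 98.4 bp, and on chromosome 3 from 29610010 to 29613109, with 87.5 bp. The lowest were on chromosome 3 from 8106010 to 8109009, with a width of 977 bp, on chromosome 11 from 107284685 to 107287684, with 853 bp, and on chromosome 14 from 481647 to 484646, with 827 bp. In 10 windows and libraries the files cap the highest depth, which makes these values lower bounds. How PCR copies and multiply matching reads were treated is not stated in the sources used here, and their part in the stacks was not tested.

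Positions along chromosomes were uneven. Chromosome 8 held 158 selected windows, chromosome 1 held 150, chromosome 4 held 114, chromosome 3 held 109 and chromosome 7 held 92. Together these chromosomes held 50.04% of the selected windows and 24.9% of the autosomal windows. Per Mb of sequence, chromosome 27 held 1.56, chromosome 8 held 1.39 and chromosome 29 held 1.22 windows, against 0.496 over all autosomes. Chromosomes 27 and 29 owed this to single loci of 58 and 49 windows. Chromosomes 12, 20 and 23 held 0.055, 0.056 and 0.057 per Mb, and no locus there had more than 2 windows. Only 270 of 2529 stretches of 1 Mb held a selected window, and the 10 stretches with the most held 33.3% of them.

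Most selected windows lay away from the chromosome ends, but the first Mb held more than its share of windows. The first Mb of the autosomes held 43, or 3.45%, where 1.15% of the autosomal windows lie. Of these, 23 were on chromosome 14 and 8 on chromosome 19. The last Mb held 14, or 1.12%, of which 6 were on chromosome 11 and 5 on chromosome 4. Chromosome length was also split into 10 equal parts, which held between 4.74% and 19.6% of the selected windows. The parts from 60 to 70% and from 90 to 100% of the length held the most, with 244 and 228 windows. Counted as loci, the parts held between 7.02% and 15.1%, and those at both ends were highest.

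**Figure D2:**
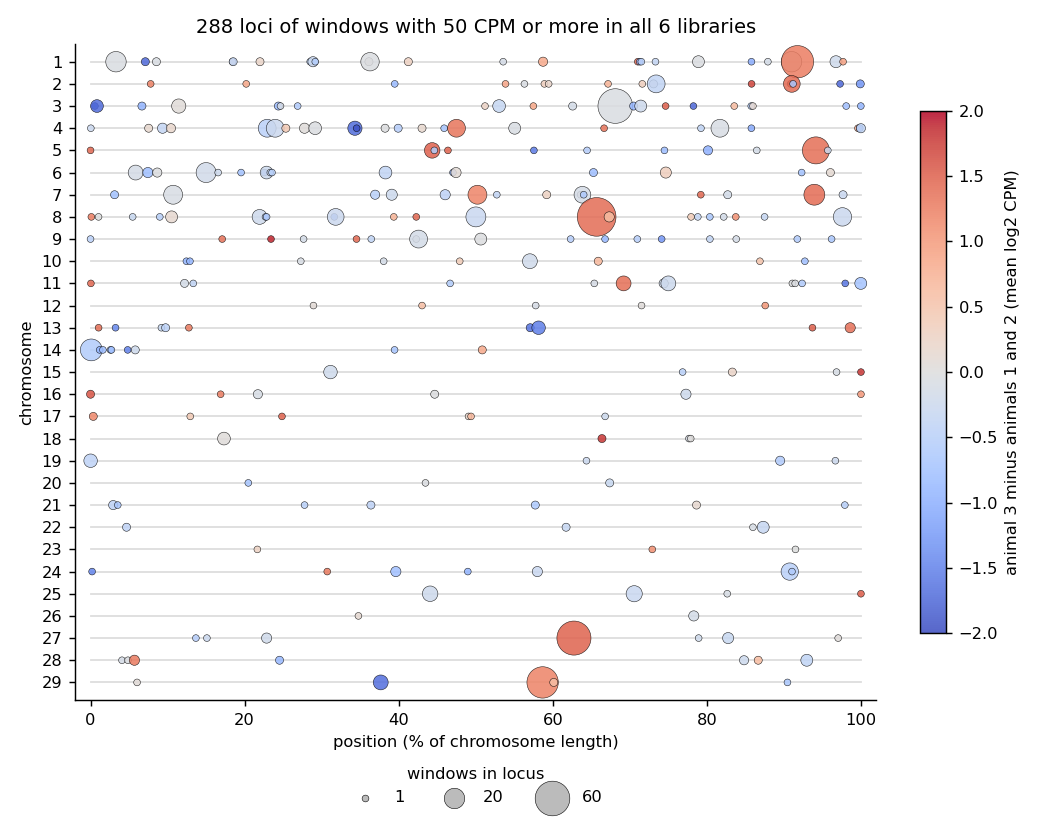
Position of the 288 loci, as a percentage of chromosome length (x) on each of the 29 autosomes (y); point area grows with the number of windows and colour gives the mean log2 CPM of animal 3 minus that of animals 1 and 2. The largest points lie inside the chromosomes, and the largest red ones are on chromosomes 8, 27, 1, 29 and 5.

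The 10 windows with the highest mean CPM came from 3 places. The top 2 adjoined each other on chromosome 1, from 11268701 to 11274700. The upper one had 5275, 7220 and 1829 CPM at 5 months in animals 1, 2 and 3 and 6337, 8036 and 2094 CPM at 16 months. Both libraries of animal 3 were the lowest. The other 8 were 4 windows of the locus at 145 Mb on chromosome 1 and 4 windows on chromosome 7 between 56568046 and 56601045. Of these 8, the top window was on chromosome 1 from 145296901 to 145299900, with 2602, 3164 and 9026 CPM at 5 months and 3984, 2991 and 7753 CPM at 16 months. The highest on chromosome 7, from 56568046 to 56571045, had 2741, 3198 and 8359 CPM at 5 months and 3910, 3021 and 6769 CPM at 16 months. In all 8 both libraries of animal 3 were the highest.

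Differences between animals were tested in the fit across all windows with edgeR's quasi-likelihood test of the animal terms, with age as a covariate and calls at an adjusted p below 0.1 and a largest fold between animals of at least 2. Of 104658 windows tested, 20.6% were called, and of the 1245 selected windows 578 (46.4%) were called. Among the 6713 unselected autosomal windows of 10 CPM or more the share was 17.4%. With TMM factors over all windows 0 selected windows were called between animals in edgeR's fit, with 56 at an unadjusted p under 0.05. That setting called 729 of all 104658 windows tested. With no filter on low counts 0 selected windows were called, with 0 at such a p, against 221 of all 884574 windows tested. DESeq2 called 576 selected windows and 12323 of all windows tested. The selection used the same counts, and required 50 CPM in both libraries of animal 3, so nothing is read from these shares about the selected windows as a group. In 513 of the 578 animal 3 was above animals 1 and 2 in the fit. The split depends on the scaling. TMM factors, which centre the tested windows, left the median of the selected windows at 0.62 (log2, animal 3 against animals 1 and 2). That of all tested windows was -0.01. With library size only the medians were 0.00 and -0.62, with 409 above and 139 below among 548 called. This scaling called 40967 of all windows tested, against 21512 in the fit above, so the contrast in shares called also depends on the scaling. Loess normalization gave 259 above and 225 below among 484, and called 16299 of all windows tested.

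Animal 3 made up most of this. Without it, 27 selected windows and 1476 of all 103419 windows tested were called between animals 1 and 2. The fall was thus seen in all windows tested and was not particular to the selected ones. The log2 CPM of animal 2 less that of animal 1 had an SD of 0.40 over the selected windows and reached 1 in either direction in 30 of them, while the difference of animal 3 from the other two had an SD of 0.91 and reached 1 in 463. Both libraries of animal 3 were above all 4 others in 497 selected windows (39.9%), against 7.63% of tested windows, and below them in 308 (24.7%), against 53.7%. Among the 6713 other windows of 10 CPM or more these shares were 7.0% and 81.0%. These counts are on the CPM scale, which the read share of the selected windows in animal 3 also moves. Windows were mostly lower in animal 3 on this scale, and those that fell under 50 CPM there were not selected, so the excess above and the deficit below are in part fixed by the selection.

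The differences of animal 3 peaked in separate places, with fewer windows between them. On the log2(CPM + 0.5) scale 388 selected windows, or 31.2%, had animal 3 above by 1 or more, 59 had a difference from 0.5 to 1, and 798 had one under 0.5. In the 6713 other windows 4.38% were above by 1 or more and the median was -1.05, against 0.00 in the selected windows. The others include windows left out for a low value in animal 3, and this contrast is a description of the selection too. The windows above by 1 or more took 20.9% and 16.9% of the counted reads in the 5- and 16-month cultures of animal 3, and between 6.61% and 8.71% in the other 4 libraries. The remaining selected windows took 13.0% in both libraries of animal 3 and between 15.7% and 20.4% in the others. The windows were split by this same difference, so the direction of both contrasts follows largely from the split.

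**Figure D3:**
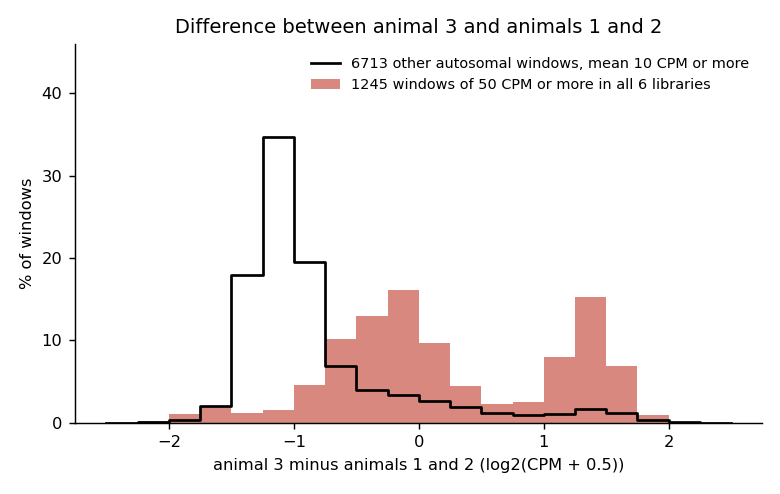
Log2(CPM + 0.5) of animal 3 minus the mean of animals 1 and 2 (x) as the percentage of windows (y), for the 1245 selected windows (bars) and for 6713 other autosomal windows with a mean CPM of 10 or more (line). The selected windows have a peak just under 0 and another between 1 and 1.75. The other windows have their main peak near -1 and a small second rise in the same place, with 1.65% of them between 1.25 and 1.5.

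Whole loci moved together. Of the 35 loci of 10 or more windows, 11 had a mean difference of animal 3 between 1.20 and 1.49 and the other 24 had one between -1.68 and 0.03, with none between. The 11 loci held 357 windows, and in 355 of them both libraries of animal 3 were above all others. The other 24 held 398 windows, and in 41 of them this was so. Within a locus the SD of the difference was between 0.08 and 0.68, with a median of 0.25, against 0.91 over all selected windows. All 357 windows of the 11 loci were called between animals, and 60 of the 398. The loci were split by this same difference, so the 355 and the 357 follow largely from the split. Windows of a locus are also not independent of each other. With TMM factors over all windows 0 selected windows were called. In the TMM-scaled fit the ranges were from 1.81 to 2.12 and from -1.07 to 0.65. TMM factors move all windows of a library alike, so this gap follows from the one in CPM and is no further support for it. Under each scaling tried the 11 were above 0, with their lowest value of 0.33 under loess normalization, while the sign of the others varied with the scaling.

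The 11 loci lay on chromosomes 1, 2, 4, 5, 7, 8, 11, 27 and 29. The largest had 75 windows on chromosome 8 from 74485787 to 74800786, with a mean of 124, 101.4 and 322 CPM at 5 months for animals 1, 2 and 3 and of 115, 94.9 and 243 CPM at 16 months. The locus of 58 windows on chromosome 27 from 28490767 to 28937766 had 99.1, 74.2 and 265 CPM at 5 months and 88.7, 70.8 and 197 CPM at 16 months. The locus of 52 windows on chromosome 1 from 145290901 to 145452900 had 334, 397 and 1027 CPM at 5 months and 502, 364 and 878 CPM at 16 months. In each of them animal 3 stood above the other animals at both ages.

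Among the 24 other loci the largest had 60 windows, on chromosome 3 from 82708110 to 82912109. It averaged 142, 138 and 121 CPM at 5 months and 118, 156 and 130.1 CPM at 16 months, and the animals overlapped. The lowest in animal 3 was the locus of 10 windows on chromosome 29 from 19401119 to 19443118, with a difference of -1.68, which was on the same chromosome as a locus where animal 3 was high. In the loci of 3 to 9 windows 2 of 48 had a mean difference of 1 or more, 2 had one from 0.5 to 1, and 44 had one under 0.5.

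**Figure D4:**
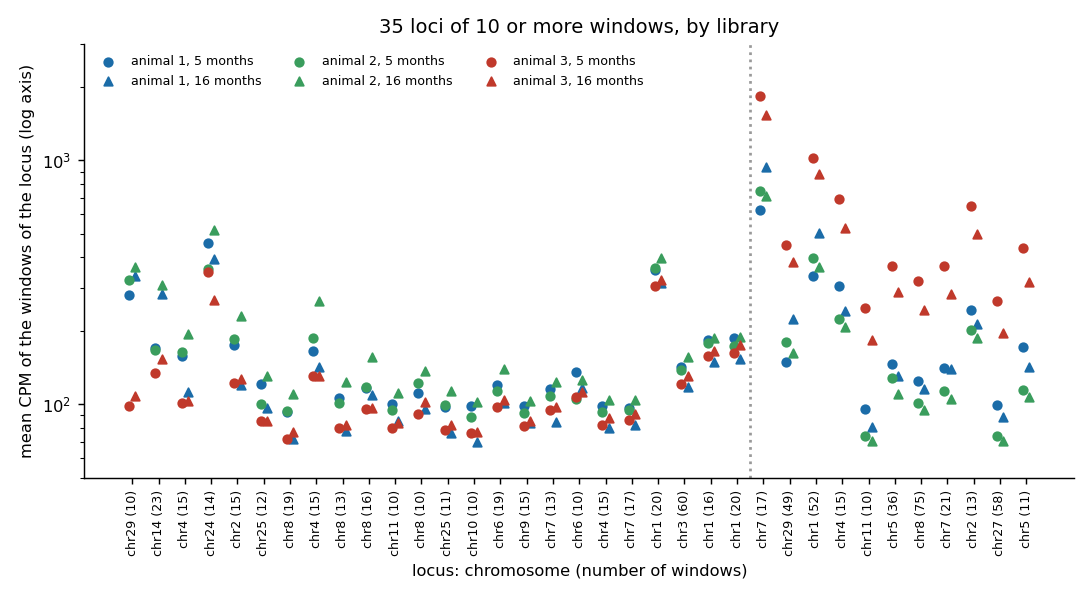
Mean CPM (log axis) of the windows of each of the 35 loci of 10 or more windows, in each library (circles 5 months, triangles 16 months, colour by animal), ordered by the difference of animal 3 from animals 1 and 2. Right of the dotted line are the 11 loci with animal 3 above the other animals at both ages; left of it are the other 24.

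Loci on different chromosomes shared the pattern over the 6 libraries. The sets given here were chosen after the values were seen, and a pattern is the log2 of the mean CPM of a locus less its mean over libraries. In 3 of the 11 loci, those at 145 Mb on chromosome 1, 57 Mb on chromosome 7 and 30 Mb on chromosome 29, the 5-month culture of animal 1 was below the 16-month culture by 0.57 to 0.59, and no library differed by more than 0.09 between the 3 loci. In the other 8 the 5-month culture of animal 1 was above by 0.02 to 0.33, and the largest range of a library between the 8 was 0.25. In the 24 remaining loci a library differed by up to 1.08.

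Some windows elsewhere were close to these patterns. With a tolerance of 0.25 in each of the 6 libraries, 81 selected windows outside the chromosome 1 locus at 145 Mb, in 21 loci on 15 chromosomes, had its pattern, or 6.79% of the selected windows outside it, against 0.313% of the 6713 other windows. For the chromosome 8 locus these were 110 windows in 20 loci on 12 chromosomes, or 9.40%, against 1.505%. For the chromosome 3 locus of 60 windows they were 213 windows in 88 loci on 28 chromosomes, or 18.0%, against 2.44%. The pattern of the chromosome 29 locus that was low in animal 3 was shared by 26 selected windows in 11 loci on 7 chromosomes, or 2.11%, against 3.799%, and among the 26 were the 2 windows of chromosome 1 with the highest CPM. Of the windows of the 4 loci themselves, 40 of 52, 40 of 75, 22 of 60 and 6 of 10 met the tolerance, so many windows of a locus did not have the pattern of its mean. The other windows had failed the selection, which used the same values. The samples that these patterns rest on are 6 libraries of 3 animals, and no test was made of the match.

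Across the selected windows the rank correlation of CPM was 0.888, 0.946 and 0.984 between the libraries of animals 1, 2 and 3 (Spearman's rho over 1245 windows, which are not independent). Between animals 1 and 2 it was between 0.800 and 0.837, and between animal 3 and the others between 0.294 and 0.719. The lowest was between the 16-month culture of animal 2 and the 5-month culture of animal 3.

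The 5 windows called between animals with the lowest adjusted p all had animal 3 highest and animal 2 lowest. The window on chromosome 8 from 74728787 to 74731786 had 204, 66.3 and 609 CPM at 5 months in animals 1, 2 and 3 and 192, 73.0 and 448 CPM at 16 months. Its largest log2 difference between animals was 3.47 in the fit. On chromosome 18 from 43827198 to 43830197 the values were 254, 78.3 and 616 CPM at 5 months and 190, 80.1 and 415 CPM at 16 months. A window labelled RNF122 on chromosome 27 from 28658767 to 28661766 had 175, 67.0 and 469 CPM at 5 months and 150, 65.3 and 334 CPM at 16 months. The other two, on chromosome 8 from 74698787 to 74701786 and on chromosome 7 from 105844346 to 105847345, had largest log2 differences of 3.21 and 2.89. In each of the 5 the animals did not overlap. They were picked by the adjusted p between animals, so nothing is read from this.

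Gene labels were rarer than elsewhere. The files printed a gene beside 180 of the selected windows, or 14.5%, where they did so for 40.0% of autosomal windows and 60.5% of the autosomal windows tested. Of the 180 windows, 17 (9.44%) held coding sequence by the files, where 33.3% of all labelled autosomal windows did. The 180 windows carried 67 labels, of which 52 matched a symbol of the RefSeq gene table and 3 a synonym. Of the labels, 48 stood beside 1 window, and the 4 labels with the most windows held 90 of the 180.

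The label with the most selected windows was RNF122, a RING finger ubiquitin ligase, with 58. The files gave this label to 167 windows, and 98 of its 109 other windows also had a mean CPM of 25 or more. The 58 windows had a mean CPM of 133 and a highest window mean of 256, and none held coding sequence. All 58 belonged to the chromosome 27 locus that was high in animal 3, with differences from 0.86 to 1.93. The signal of this label thus ran along most of its length.

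The other labels with several selected windows had fewer of them, and the signal of their other windows varied. SLC9A10 had 16 of 52 windows, and its other 36 all had a mean CPM under 1. TNFAIP8L3, of a family of lipid transfer proteins, had 10 of 35 windows, all in 1 locus on chromosome 10 from 59480001 to 59537000 with a mean CPM of 85.4. Of its other 25 windows, 10 had a mean CPM of 25 or more and 13 had one under 1. ERBB4, a receptor tyrosine kinase that binds neuregulins, had 6 of 325 windows, spread from 100160734 to 100634733 on chromosome 2, and 317 of the other 319 had a mean CPM under 1. Its 2 highest windows adjoined each other from 100160734 to 100166733 and went in opposite directions. The first had 366, 450.1 and 851 CPM at 5 months and 418, 339 and 890.4 CPM at 16 months, with animal 3 above the others. The second had 1108, 1176 and 640.0 CPM at 5 months and 950.3, 1798 and 660.1 CPM at 16 months, with animal 3 below the others.

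ADAMTS3, a protease that cleaves the propeptide of collagen, had 5 of 100 windows. ABI3BP, a protein of the extracellular matrix, had 4 of 100, and KIAA1324L had 4 of 82. LOC786055 had 4 of 38 and was the LOC symbol with the most windows. In all, 20 windows carried 16 LOC symbols. Labels were also searched by a list of imprinted genes and by the first letters of the symbols of gene families (HOX, histone, olfactory receptor, immune receptor and MHC, pregnancy-associated, RPL and RPS ribosomal protein, small RNA, and ZNF, ZFP and ZSCAN zinc finger genes), and no selected window matched. Each of these groups labelled only between 0.0086% (HOX) and 0.424% (zinc finger) of all autosomal windows, so nothing is read from the lack of a match. The lists do not hold every gene of these kinds. Outside them were a window beside MRPS11, a mitochondrial ribosomal protein gene, with a mean CPM of 80.4, a window beside ZSWIM5, a gene with a SWIM-type zinc finger, with a mean CPM of 128, and 3 windows beside ASB4, which is imprinted in some mammals, with a mean CPM of 359. These labels were noticed after the values were seen.

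Of the 15 labelled windows with the highest mean CPM, the first was beside FSIP2, a protein of the fibrous sheath of sperm, on chromosome 2 from 10700034 to 10703033. It had 1302, 859 and 2806 CPM at 5 months and 886, 923 and 1854 CPM at 16 months, highest in animal 3. The next, beside DCAF6, an adaptor of a ubiquitin ligase, on chromosome 3 from 692610 to 695609, had 1140, 1710 and 366 CPM at 5 months and 1327, 1867 and 401 CPM at 16 months, lowest in animal 3. A window beside NRD1, the protease nardilysin, had the same order, with 663, 879 and 234 CPM at 5 months and 792, 955 and 256 CPM at 16 months.

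The windows beside KCTD1 and ENPP3 were highest in the 16-month culture of animal 2. KCTD1, a transcriptional regulator, had 1329 CPM there and between 362 and 752 CPM in the other libraries. ENPP3, an ectonucleotide pyrophosphatase, had 1101 CPM there and between 316 and 607 CPM in the others. The widths of the KCTD1 and ENPP3 windows at the highest depth were 90.1 and 77.3 bp, no more than about 1 read. What part such stacks had in these values was not tested. The remaining windows of the 15 were the ERBB4 pair above, a pair beside ASB4, and 1 each beside ABI3BP, CNTNAP5, SLC9A10, ARFGEF1, TSN and MET. Their mean CPM ranged from 304 to 1055. MET, the receptor of hepatocyte growth factor, had the narrowest range of the 15, with between 268 and 366 CPM in the 6 libraries.

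For age, edgeR's quasi-likelihood test with the animal as a block called 4 (0.321%) of the 1245 selected windows at an adjusted p below 0.1 and a fold of at least 2, and 0.185% of the 104658 windows tested. All 4 were higher in the cultures from 16-month old animals. Of all tested windows 0.0803% were called higher at 16 months and 0.105% higher at 5 months. Of the 4, 3 were on chromosome 14 and 1 on chromosome 6, and none had a gene label.

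The window on chromosome 14 from 575547 to 578546 had 146, 187 and 224 CPM at 5 months in animals 1, 2 and 3 and 499, 644 and 229 CPM at 16 months. Its log2 fold change was -1.25 (5 over 16 months, with a standard error of 0.29 and adjusted p = 0.0317 in edgeR's fit). The standard errors and adjusted p given for age rest mostly on variance shared across windows (178 prior against 2 residual degrees of freedom). They do not measure the spread between the 3 animals. Animals 1 and 2 were well above their 5-month values and animal 3 was close to its own, so that the age groups did not overlap but lay near each other in animal 3. The window from 277147 to 280146 had 182, 294 and 240.5 CPM at 5 months and 598, 871 and 275 CPM at 16 months. Its log2 fold change was -1.20 (standard error 0.29, adjusted p = 0.0374 by the same test), and the age groups overlapped. The window from 397447 to 400446 had 149, 229 and 153 CPM at 5 months and 484, 618 and 181 CPM at 16 months. The fitted change was -1.16 on the log2 scale (standard error 0.29, adjusted p = 0.0439 by edgeR's test), and its age groups overlapped too.

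The window on chromosome 6 from 8897682 to 8900681 had 75.4, 82.3 and 71.9 CPM at 5 months and 188, 243 and 84.0 CPM at 16 months. Its log2 fold change was -1.07 (standard error 0.28, adjusted p = 0.0658 by edgeR's test), and its age groups did not overlap, by a small margin in animal 3. In each of the 4 windows the log2 CPM of single animals was lower at 5 months by 1.32 to 1.79 in animals 1 and 2 and by 0.03 to 0.24 in animal 3. With 1 library per animal and age, the difference in this step between animals could not be tested. The calls rested on both animals 1 and 2, since 0 of the selected windows were called without either of them, where edgeR gave 7 with an unadjusted p under 0.05 in each case. DESeq2 also called 0, with 31 at an unadjusted p under 0.05.

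**Figure D5:**
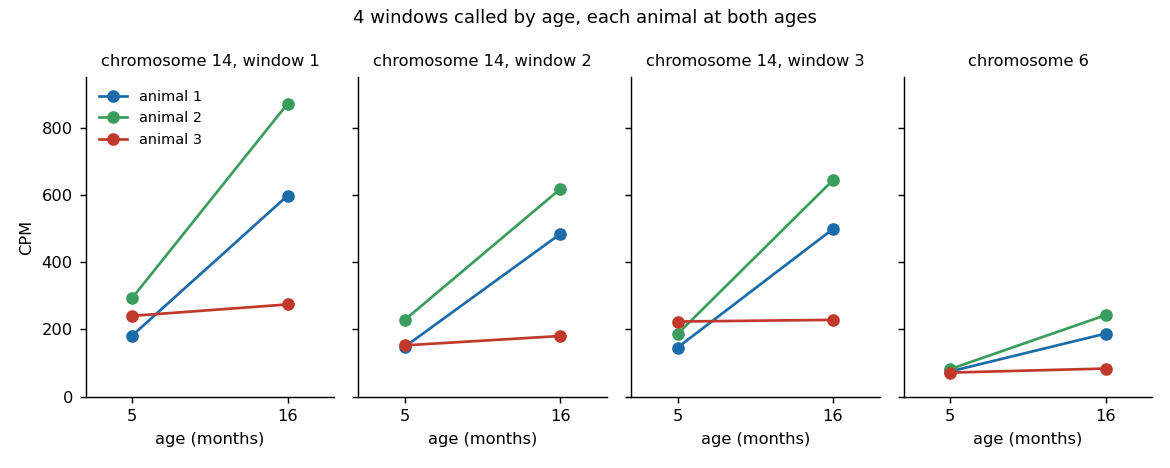
CPM of the 4 windows called by age, in the 5- and 16-month cultures of each animal (lines join the libraries of an animal; the windows of chromosome 14 are numbered along the chromosome). Animals 1 and 2 lie higher at 16 months in each window, and the lines of animal 3 are nearly level.

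Selected windows near the called ones mostly had the same sign. The first Mb of chromosome 14 held 23 selected windows in 1 locus from 84747 to 635546, of which 2 carried LOC symbols and 3 were called. Of the 20 not called, 18 had a negative log2 fold change in the fit, that is, a higher value at 16 months, with a median of -0.45. By animal, 16, 17 and 17 of the 20 were higher at 16 months in animals 1, 2 and 3, with median log2 CPM differences of -0.49, -0.68 and -0.19. The 161 unselected windows tested in this Mb had a median of -0.16, and 2 of them were called, both higher at 16 months. On chromosome 6 the 3 selected windows of the locus that were not called had log2 fold changes from -0.97 to -0.57. Besides the 4 called, 16 selected windows had a log2 fold change of -0.5 or lower, 9 of them in the first Mb of chromosome 14. The median of all tested windows was 0.02.

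The other selected windows differed little by age. Their log2 fold changes, the 4 called included, ranged from -1.25 to 0.54, with a median of 0.01 and an SD of 0.19, where the SD over all tested windows was 0.32. In 98.3% of the selected and in 88.8% of the tested windows the value was within 0.5 of 0. The tested windows include many with far fewer reads, and the selection required 50 CPM at both ages. The narrower spread of the selected windows is therefore not read as a smaller effect of age. The standard error of a selected window had a median of 0.26. An unadjusted p under 0.05 was found in 20 selected windows and in 7429 of all tested. The single window at 0.5 or higher, on chromosome 16 from 13802581 to 13805580, had 147, 58.4 and 222 CPM at 5 months and 63.9, 61.3 and 149 CPM at 16 months, and was not called (log2 fold change 0.54, adjusted p = 0.690 from edgeR's test).

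Directions by animal were mixed. In CPM, 271 selected windows (21.8%) had the same direction in all 3 animals, against 24.1% of tested windows, with 180 higher at 5 months and 91 higher at 16 months. In animal 1, 911 selected windows were higher at 5 months, with a median log2 difference of 0.21, where all tested windows had a median of 0.16. In animals 2 and 3 these were 517 and 610 windows, with medians of -0.06 and -0.01. The loci that were high in animal 3 showed this too. In the 11 loci the median log2 fold change of a locus was between -0.14 and 0.27, negative in the 3 where animal 1 was lower at 5 months and positive in the other 8. None of their 357 windows was called by age.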

How the data were processed

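The authors filtered reads on quality, uncalled bases and length, used NextGENe to place them on the cattle assembly UMD v3.1, and deposited raw read counts of sequential windows, with the highest, mean and lowest depth of coverage of each window as an unscaled signal. Positions and gene labels are those of the deposited files, and symbols were matched to a RefSeq table of assembly ARS-UCD2.0. CPM was taken over the counts of all windows. The members and lists were chosen with earlier results of these data known. A window entered the tests when 3 or more libraries had a CPM of 1 or more. The quasi-likelihood test of edgeR was fitted with animal and age as terms and TMM factors, with Benjamini-Hochberg adjustment, on 2 residual and 178 prior degrees of freedom. Standard errors were computed by dividing a log2 fold change by the square root of its F value. The likelihood-ratio test, DESeq2, other scalings and filters, other thresholds of selection and leaving out each animal were alternatives.

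The pairing comes from the animals, and, after the mean of each age was taken away, both libraries of animal 1, of animal 2 and of animal 3 correlated at 0.294, 0.547 and 0.741. Replicates are cultures of separate animals. Named windows are those with the highest CPM (10, and 15 with a gene label), the 5 longest runs, those beside the threshold, those called by age, the 5 with the lowest adjusted p between animals, and the 3 highest and 3 lowest in depth per read. Other windows and loci named, and the joining of windows up to 100 kb apart, were chosen after their values were seen. In simulated data of 104658 windows with 100 selected windows changed 2.5-fold and 100 changed 4-fold, the age test recovered 90 and 100 with 11 false calls, and the animal test recovered 90 and 100 with 3. With no change there were 0 calls. All simulated windows had 1 common dispersion, and an age change was the same in all 3 animals. For the animal test the unchanged windows had equal shares in every animal. The data differ from these settings, so the counts do not give the error rates of the tests in them. No step here removed PCR copies, and reads may be copies of one molecule. R 4.3.3 with edgeR 4.0.16 and DESeq2 1.42.0, and Python 3.11.15 with pandas 2.3.3 and scipy 1.17.1, were used.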

Additional observations from a re-analysis of the deposited data

Results flagged for a closer look

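Windows outside chromosomes 1 to 29 also reached 50 CPM in all 6 libraries, in data that the comparisons above do not use. On contigs not placed on a chromosome these were 630 of 3166 windows, which held 13.6% ± 2.45 of the counted reads (SD, n = 6 libraries). Both libraries of animal 3 were above the other 4 in 250 of them (39.7%), a share close to that of the selected autosomal windows. On chromosome X these were 21 windows, which held 0.231% ± 0.0469 of the counted reads, with animal 3 above in 2. No window of chromosome Y and no mitochondrial window met the threshold.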

How the results depend on the processing

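The threshold decided how many windows were selected. At 25 CPM there were 2006 windows with 31.7% of the reads, 84.1% of them in runs of at least 2, 42.8% on the 5 chromosomes named above and 17.7% with a label. At 100 CPM there were 458 windows with 18.6% of the reads, in 277 runs, 57.9% in runs of at least 2, 56.8% on those chromosomes and 11.8% with a label. By mean CPM 80.6% stood in such runs, 44.8% on those chromosomes and 18.3% had a label, and with CPM over chromosomes 1 to 29 the first 2 shares were 78.6% and 47.1%. Runs numbered 332 with gaps of up to 3 windows and 288 when windows up to 100 kb apart were joined. The mean highest depth per read was 0.368, above the median of 0.332. The loci of 10 or more windows with animal 3 above by over 1 numbered 7 at 100 CPM and 6 with loess normalization, and 11 under the other settings tried.

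Without the animal as a replicate block edgeR called 0 selected windows by age, with 0 at an unadjusted p under 0.05. The count was also 0 with TMM factors over all windows, with no filter on low counts and with DESeq2, and 0 to 6 when each animal was left out. Of all windows tested, 0 were called by age without the block, 25 with those TMM factors, 2 with no filter and 15 with DESeq2. That count was 14 to 1278 when each animal was left out. Between animals 0 were called with TMM factors over all windows and 0 with no filter, and 27 to 521 when each animal was left out. Of all windows tested these settings called 729, 221 and 1476 to 21858. TMM factors over all windows were 0.755 and 1.29 for the libraries of animal 2, where those used were 1.03 and 1.16. Of 126 values of the 9 called windows under alternatives, 90 were called, 36 were not and 0 had the other sign. The windows called by age held up less often. Each of those on chromosome 14 had 8 values called and 6 not, and the one on chromosome 6 had 7 and 7. Each of those called between animals had 11 or 12 called and 2 or 3 not. The cause of these changes was not tested.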

Other observations

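Some window lengths in the files differ from 3000 bp. Of the selected windows 78, or 6.27%, were longer, by multiples of 100 bp up to 3300 bp, where 0.254% of all autosomal windows were longer. A window of this kind stood within 3 windows of 12.8% of the selected windows and of 1.08% of autosomal windows. In the selected windows with animal 3 above by 1 or more on the log2 scale 2.06% were longer, and in the rest 8.17% were. The last window of each of the 29 autosomes runs past the chromosome end in the files, and 3 of these windows, on chromosomes 15, 16 and 25, were selected. Their mean CPM were 127, 111 and 127, and both libraries of animal 3 were above the other 4 in each.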
